A study of Mus musculus with 15 samples.

Results

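The 10 genes described here bring iron into cells, reduce it for transport, carry it outside cells or send it out again. They are the transferrin receptor Tfrc, the divalent metal transporters Slc11a1 and Slc11a2, the ferrireductases Cybrd1, Steap2, Steap3 and Steap4 with their relative Steap1, the siderophore binding protein Lcn2 and the iron exporter Slc40a1. They were chosen by symbol, as every non-control probe of the array that carries 1 of these names, which gave 17 of 55681 probes and 10 of 24336 gene symbols. All 10 genes were on the array, and each was measured in 15 liver tumors of mice. The question asked was in which of 3 tumor groups each gene was high or low, and whether the groups differed by more than the tumors within them.

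Iron circulates in blood bound to transferrin, and cells take up this complex through Tfrc into endosomes, where Steap3 reduces ferric to ferrous iron and Slc11a2 carries it into the cytosol. Tfrc mRNA is stabilised by the iron regulatory proteins when cellular iron is low, while the liver hormone hepcidin, the product of Hamp, binds the exporter Slc40a1, known as ferroportin, and leads to its breakdown. Slc11a1 is best known from the phagosomes of macrophages and neutrophils, Cybrd1 from the brush border of the duodenum, and Lcn2 from neutrophil granules and the hepatic acute phase response. Steap3, also called TSAP6, is a known target gene of p53.

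Total RNA of whole tumor tissue was labelled with Cy3 and hybridised with 1 array per tumor. The groups were hepatocellular carcinomas (HCC), 5 from p53f/f mice and 5 from p53LKO mice, and 5 further tumors of p53LKO mice labelled ICC, intrahepatic cholangiocarcinoma, a cancer with features of bile ducts. The p53LKO mice lacked Trp53 in the liver, by a driver that is not given in the sources used here, and p53f/f mice carried the floxed alleles without deletion. All mice were males on a C57BL/6J background, and all received carbon tetrachloride (CCl4), which injures hepatocytes, at 0.5 µl per g body weight in olive oil for 16 weeks. The labels give an interval of 3 days, and the study's methods give 2 injections a week. Mice of the study were killed at more than 1 age, and the age of the mouse of each hybridised tumor is not given in the sources used here, so age cannot be told apart from genotype. The 5 p53f/f HCC came from 4 mice, since mouse 3717 gave 2 of them, and the tumors of each p53LKO group came from 5 mice. Mice 3731, 3733, 3976 and 5283 gave both an HCC and an ICC.

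A level is the log2 of the processed signal, the spot intensity after background subtraction by the scanner software, minus the 75th percentile of all probes on that array, so that 0 marks the 75th percentile. A difference of levels is a log2 fold change. A probe is described as called where the adjusted p of limma was below 0.05 and the fold change above 2, and a gene is represented by its brightest probe. The p-values measure the spread between tumors, and arrays have no read depth, so precision rests on the 5 tumors of each group. In whole tumor RNA, fewer cells of a type and less RNA per cell cannot be told apart.

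Trp53 itself, with a probe starting at base 1187 of its transcript, lay between -1.27 and -0.68 in p53f/f HCC, between -3.86 and -2.75 in p53LKO HCC and between -4.19 and -2.31 in ICC, so its level separated the genotypes without overlap. The scanner software called this probe well above background in 5 of 5 tumors of p53f/f mice. For p53LKO mice it did so in 3 of 5 HCC and 1 of 5 ICC. The low ranges thus include background signals, and the size of the drop is uncertain. Whether this probe lies in the deleted exons is not given in the sources used here. The arrays lay on 2 slides with 2 rows each, and all p53f/f HCC were in the upper row and all ICC in the lower row, so ICC against p53f/f HCC cannot be told apart from the row. The share of spots called well above background by the software went with the row. It was 56.1% to 70.8% in the upper row, where the 3 p53LKO HCC were at 62.0% to 63.1%, and 38.4% to 48.3% in the lower row, where the other 2 were at 47.7% and 38.4%. Its part in the differences between groups was not tested beyond the values within a row. Of the probes called, 1314 were higher and 5774 lower in p53LKO HCC than in p53f/f HCC, a split that moved to 1543 and 3720 with quantile normalization, to 613 and 8063 with the percentile taken over bright probes only, and to 9542 and 2344 with scaling to spike-in probes. In ICC against p53LKO HCC, 4225 were higher and 4390 lower, with 6228 and 2262 under the percentile of bright probes. In ICC against p53f/f HCC, 2652 were higher and 4285 lower, with 7015 and 934 under spike-in scaling. The spike-in scaling moved the median difference of all probes from -0.12 to 0.61 in p53LKO HCC against p53f/f HCC and from -0.31 to 0.42 in ICC against p53f/f HCC, and the percentile of bright probes moved that of ICC against p53LKO HCC from -0.16 to 0.20.

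Tfrc, Slc11a2, Cybrd1, Steap2 and Steap3 were each measured by more than 1 probe, and the place of a probe in the transcript matters below for Tfrc and Slc11a2, whose probes gave unequal differences. The following lines give the middle 30 bases of each 60-base probe of these genes and of Cybrd1, the member with the largest difference, as read from the array files, with mm9 coordinates from the same files and the first base of the probe in its transcript. Exon and untranslated region are not given for them here, since no mm9 annotation was used.
Tfrc probe from base 4288, brightest, chr16:32632270-32632299, plus strand: taacaaagactagttaaccatcattacgca
Tfrc probe from base 1228, chr16:32620485-32620514, plus strand: catagattcttcatgtaagctggaactttc
Tfrc probe from base 1732, no coordinates in the files: cagcaattggattagcaaagttgagaaact
Slc11a2 probe from base 2961, brightest, chr15:100218348-100218377, minus strand: cagaaataatcatccttgttataataaagt
Slc11a2 probe from base 253, chr15:100240531-100240560, minus strand: ccttcaccacctactttgatgagaaaatcc
Cybrd1 probe from base 4930, brightest, chr2:70980721-70980750, plus strand: agctataaatgtgcactttttagataactc
Cybrd1 probe from base 3770, chr2:70979561-70979590, plus strand: tctatctccgaagtccgataaataaataaa

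Promoters from RefSeq (GRCm38.p6) were found for 8 of the 10 genes, all but Slc11a2 and Slc40a1, as windows of 300 bases with 250 before the start of transcription. Both strands were searched for 8 motifs. The letters TTGCNNAA, a core bound by C/EBP factors of the acute phase response, were in a window of Steap3, Steap4 and Lcn2 and in 10.8% of all 32851 windows. A STAT motif, TTCNNNGAA, was in Steap2 and Steap4 and in 8.3% of windows, and an AP-1 motif, TGANTCA, was in Cybrd1 and in 7.81%. The core of the hypoxia response, ACGTG, was in Tfrc and Steap2 and in 19.6% of windows, and the E-box CACGTG, which overlaps it, was in 0 of the 8 genes and in 7.15%. A p53 consensus decamer was in Slc11a1 and in 8.36% of windows, and not in the windows of Steap3. The antioxidant response letters TGACNNNGC were in Steap2 and in 12.4%, and the NF-kB motif was in all of the 8 but Slc11a1 and in 50.8%, so that the latter separate few genes. Steap3 has 4 windows, Steap2 3 and Tfrc 2, which gives these genes more chances of a match. The promoters of Lcn2 and Steap4 are shown because both levels fell in ICC against HCC, and that of Cybrd1 because its level differed most between the groups, each as the 250 bases before the start, with C/EBP, STAT and AP-1 matches in capitals. Of Tfrc and Slc11a1 only the 30 bases around the hypoxia core and the p53 decamer are shown, again in capitals. A match is a run of letters and not a measured binding site.
Lcn2, chr2:32387740-32387989, minus strand, C/EBP at -216 to -209: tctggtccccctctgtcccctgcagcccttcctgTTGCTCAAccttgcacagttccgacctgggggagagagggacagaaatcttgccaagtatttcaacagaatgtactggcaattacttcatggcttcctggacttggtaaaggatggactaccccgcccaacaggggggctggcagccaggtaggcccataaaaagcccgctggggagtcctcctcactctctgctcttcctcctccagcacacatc
Steap4, chr5:7960222-7960471, plus strand, STAT at -116 to -108 and C/EBP at -87 to -80: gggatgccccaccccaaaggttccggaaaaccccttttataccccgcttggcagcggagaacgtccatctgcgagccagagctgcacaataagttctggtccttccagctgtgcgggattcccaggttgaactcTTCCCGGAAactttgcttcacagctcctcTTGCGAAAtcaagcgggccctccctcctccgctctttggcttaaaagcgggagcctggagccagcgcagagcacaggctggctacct
Cybrd1, chr2:71117804-71118053, plus strand, AP-1 at -235 to -229: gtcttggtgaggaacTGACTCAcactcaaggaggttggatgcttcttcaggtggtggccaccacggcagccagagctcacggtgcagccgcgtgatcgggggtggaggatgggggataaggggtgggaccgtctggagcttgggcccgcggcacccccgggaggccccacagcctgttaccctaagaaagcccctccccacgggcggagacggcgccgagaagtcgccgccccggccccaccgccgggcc
Tfrc, chr16:32608881-32608910, plus strand, hypoxia core at -2 to 2 of the upstream start: cctcggtaggtgtACGTGcggaaggaagtg
Slc11a1, chr1:74375142-74375171, plus strand, p53 decamer at -51 to -42: gtgaaattgtGAGCATGCCCtcagtgatgt

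HCC of p53LKO mice were first compared with HCC of p53f/f mice. Tfrc, Slc11a1, Steap3 and Lcn2 were called higher, by 2.80, 3.96, 2.03 and 2.54-fold, and every difference tested was above 0. These were 4 of the 9 members tested, and Cybrd1 was not tested because it was above background in 1 of the 10 HCC. Over all gene symbols tested, 5.19% were called higher and 10.8% lower in the same comparison. On either slide alone 0 of the 9 were called by limma, with 4 p53f/f and 2 p53LKO HCC on slide 1 and 1 and 3 on slide 2. In the upper row alone, with 5 p53f/f and 3 p53LKO HCC, 3 of the 4 calls were left and that of Steap3 was lost. The differences of the 4 genes kept their sign on both slides, at 1.20 and 1.87 for Tfrc, 1.57 and 2.36 for Slc11a1, 1.01 and 1.57 for Steap3 and 1.26 and 1.16 for Lcn2.

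ICC of p53LKO mice differed from HCC of the same genotype in 8 of the 10 members. Cybrd1 and Steap1 were called higher in ICC, against 13.2% of all gene symbols called higher. The fold was 6 for Steap1, and that of Cybrd1, fitted as 126, was taken against HCC of which 1 of 5 was well above background, so that its size is uncertain. Tfrc, Slc11a1, Steap3, Steap4, Lcn2 and Slc40a1 were called lower, by 2.24, 4.18, 3.28, 2.66, 6.76 and 4.78-fold, against 15.2% of all gene symbols called lower. On slide 1 alone, which held 1 ICC, 1 of these calls was left, that of Cybrd1. With the mouse as a block, 6 calls were left and those of Tfrc and Steap1 were lost. The same 6 were left in the lower row alone, with 5 ICC and 2 HCC.

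Against HCC of p53f/f mice, ICC were called higher in Cybrd1, Steap1 and Steap2 and lower in Lcn2 and Slc40a1, 5 of the 10 members tested. Of all gene symbols, 10.8% were called higher and 11.9% lower. This comparison shares its ICC with the former and its p53f/f HCC with the first, and genotype, tumor type and row of the slide differ together in it. With the slide as a block 2 calls were left, those of Cybrd1 and Steap1, and on either slide alone only that of Cybrd1, where slide 1 held 1 ICC and slide 2 held 1 p53f/f HCC, a lone tumor assumed to vary like the other group, and Cybrd1 was above background in none of the p53f/f HCC.

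**Figure D1:**
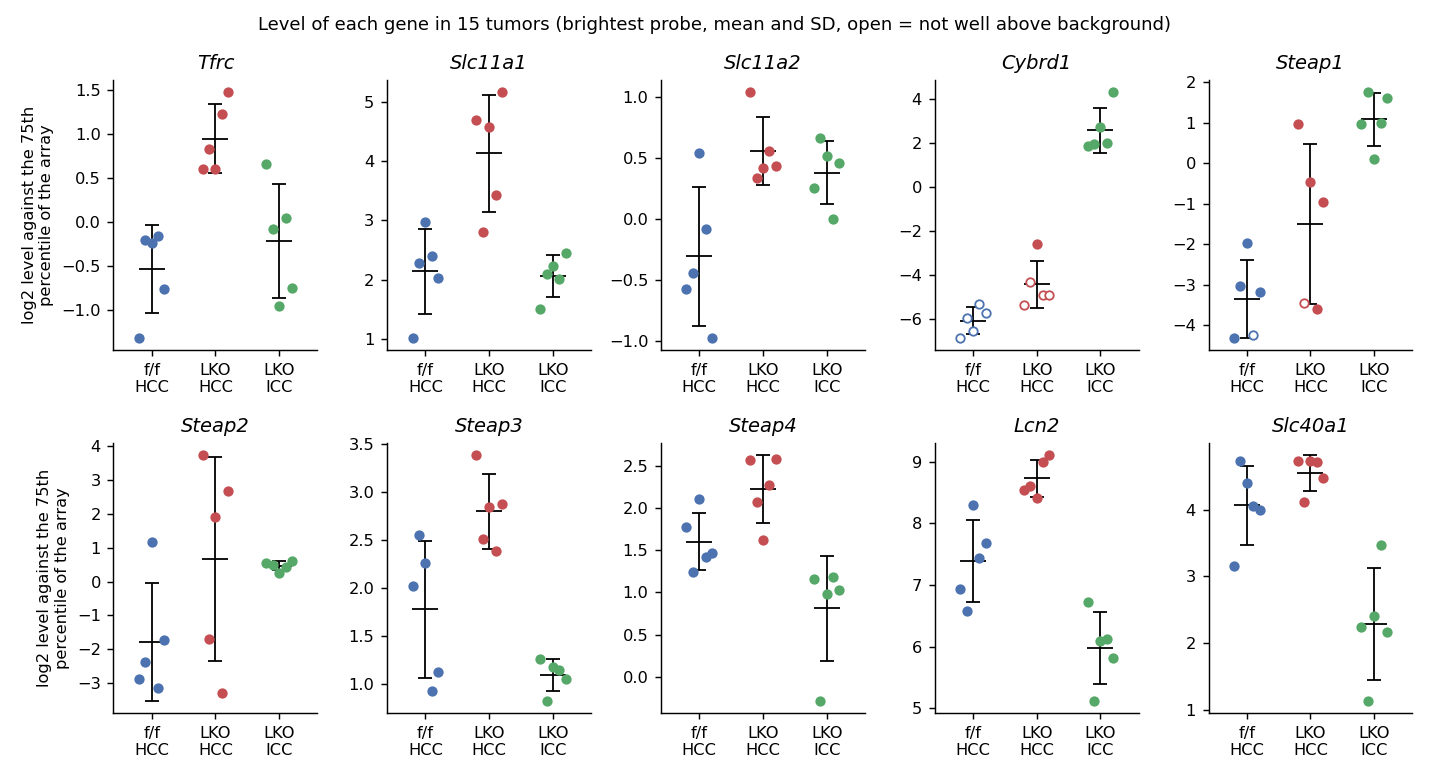
Level of each of the 10 genes (log2 against the 75th percentile of the array, brightest probe) in each of 15 tumors, as 5 p53f/f HCC in blue, 5 p53LKO HCC in red and 5 p53LKO ICC in green. Horizontal bars are group means with SD, open points were not well above background, and each panel has its own axis; Cybrd1 in ICC lies between 1.88 and 4.32 and in all HCC at or below -2.60.

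Tfrc, the receptor for transferrin iron, was higher in each of the 5 HCC of p53LKO mice than in any other HCC. Its level was -1.32, -0.21, -0.24, -0.17 and -0.77 in the p53f/f HCC of mouse 3681, 3715, 3716 and the 2 tumors of mouse 3717. In p53LKO HCC it was 0.60 in mouse 3976, 0.82 in mouse 5283, 0.60 in mouse 3731, 1.23 in mouse 3733 and 1.47 in mouse 3975. In ICC it was 0.66 in mouse 3731, -0.09 in mouse 3733, -0.96 in mouse 3976, 0.04 in mouse 3977 and -0.76 in mouse 5283. At this brightest probe, 3 of the 5 ICC thus lay above every p53f/f HCC and the other 2 within their range. The ICC of mouse 3731 alone reached the range of p53LKO HCC there. At the probe from base 1228, all ICC lay within the range of p53f/f HCC, at -1.24 to -0.53 against -2.21 to -0.49.

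The rise of Tfrc in p53LKO HCC against p53f/f HCC was 1.49 ± 0.27 (SE, adjusted p = 0.00217). The other probes of Tfrc, nearer the 5′ end, gave larger values of 2.13 (adjusted p = 0.000875) and 2.26 (adjusted p = 0.00192), the latter dim, being above background in 4 p53LKO HCC and 1 p53f/f HCC. All 3 probes were called. ICC against p53LKO HCC gave a fall by 1.17 ± 0.31 (SE, adjusted p = 0.0124) at the brightest probe and by 1.76 (adjusted p = 0.000311) at the probe from base 1228, at which all 5 ICC lay below all 5 HCC. The call at the brightest probe was lost with the mouse as a block (a difference of -1.10, adjusted p = 0.0564), with the row as a block (-0.93, adjusted p = 0.122), with the percentile of bright probes (-0.80), with normexp background correction (-0.99) and without the ICC of mouse 3976 (-0.98, adjusted p = 0.0278, under 2-fold). On slide 1 alone, where the ICC is that of mouse 3731, the difference was -0.05. ICC and p53f/f HCC, neighbours in the order of the levels, differed by 0.32 (95% interval -0.42 to 1.07, adjusted p = 0.48), while spike-in scaling gave 1.06 with a call.

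Tfrc is also high in dividing and erythroid cells. Of 15 proliferation genes, the replication helicase subunits Mcm2 and Mcm5 were called higher in p53LKO HCC, by 1.53 and 1.36, and the list's median difference was 0.83 against 0.06 over all gene symbols tested. In ICC against p53LKO HCC, 1 of the 15, Rrm2 of ribonucleotide reductase, was called, at -1.78, and the median was -0.33 (-0.32 with Aurkb, above background in no ICC, at its bound) against -0.17 over all. Of the erythroid markers, 0 of the 3 tested were called by limma in p53LKO HCC against p53f/f HCC, with 1 lower at an unadjusted p under 0.05 and a median difference of -0.28, and all 3, Hba-a1, Hbb-b1 and Alas2, were called lower in ICC than in p53LKO HCC, by 1.58 to 2.17. The mean level of the 6 erythroid markers ran from -1.47 to 0.29 in p53f/f HCC, from -1.84 to -0.43 in p53LKO HCC and from -1.69 to -1.14 in ICC. Their part in the difference of Tfrc was not tested.

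Slc11a1, the phagosomal metal transporter of macrophages and neutrophils, was highest in p53LKO HCC. Its level in p53f/f HCC was 1.03, 2.28, 2.97, 2.40 and 2.03. In p53LKO HCC it was 4.68, 2.80, 4.57, 3.43 and 5.16, with the HCC of mouse 5283 alone inside the range of p53f/f HCC. In ICC it was 1.51, 2.10, 2.24, 2.02 and 2.45, below every p53LKO HCC. The difference of p53LKO HCC from p53f/f HCC was 1.99 ± 0.48 (SE, adjusted p = 0.0094), and that of ICC from p53LKO HCC was -2.06 ± 0.42 (SE, adjusted p = 0.00283).

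ICC and p53f/f HCC were neighbours in Slc11a1 and differed by -0.08 (95% interval -0.80 to 0.65, adjusted p = 0.87), a difference whose sign turned with spike-in scaling, with the percentile of bright probes, on slide 2 alone and when the p53f/f HCC of mouse 3716 or the ICC of mouse 3731 was left out. Neutrophil and macrophage markers were measured beside it. Of the neutrophil markers, 4 of the 6 tested were called higher in p53LKO HCC, S100a8 by 1.84, S100a9 by 2.10, Ltf by 1.69 and Retnlg by 2.22, of which the call of S100a8 was lost with quantile normalization (1.64) and that of Ltf with the percentile of bright probes (1.44), and their median difference was 1.77 against 0.06 over all gene symbols. The mean level of the 7 neutrophil markers on the array ran from -2.98 to -1.55 in p53f/f HCC, from -1.49 to 0.52 in p53LKO HCC and from -2.34 to 1.48 in ICC. In ICC against p53LKO HCC, where Slc11a1 fell, 1 of 7 was called lower, the chemokine receptor Cxcr2, which was above background in 0 of 5 ICC and 3 of 5 HCC and so at least 1.08-fold lower. The median difference of the list was -0.15, and -0.11 with Cxcr2 at that bound. Of the 9 macrophage markers tested, 0 were called by limma in p53LKO HCC against p53f/f HCC or in ICC against p53LKO HCC, although 4 and 3 were higher at an unadjusted p under 0.05, with medians of 0.48 and 0.16, and the mean of the list ran from 0.53 to 1.73, from 0.75 to 2.47 and from 0.86 to 2.48 in p53f/f HCC, p53LKO HCC and ICC. In ICC against p53f/f HCC, where Slc11a1 was not called, 4 of the 9 macrophage markers were called higher, Adgre1 by 1.06, Cd68 by 1.00, C1qa by 1.71 and C1qb by 1.34, and of the 7 neutrophil markers Ngp was, at least 4.01-fold against HCC with no signal above background, with list medians of 0.47 and 1.47 against -0.18 over all gene symbols. The part of these cells in the level of Slc11a1 was not tested.

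Slc11a2, known as DMT1, carries ferrous iron out of the endosome and is known to end in alternative last exons. At its brightest probe, near the 3′ end, the level was -0.58, -0.45, 0.54, -0.08 and -0.98 in p53f/f HCC. It was 1.04, 0.33, 0.41, 0.56 and 0.43 in p53LKO HCC and 0.25, 0.66, 0.52, 0.00 and 0.46 in ICC. The p53f/f HCC of mouse 3716 lay within the range of the other groups, and the other 4 lay below both.

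The difference of p53LKO HCC from p53f/f HCC in Slc11a2 was 0.86 ± 0.27 (SE, adjusted p = 0.0323), a fold of 1.82 and so not called. Without the p53f/f HCC of mouse 3716 it was 1.07 (adjusted p = 0.00641), with the slide as a block 1.05 (adjusted p = 0.0204) and with spike-in scaling 1.59, each of which was called. The probe from base 253 gave 0.25 (adjusted p = 0.3). That probe was lower in all 5 ICC than in any p53LKO HCC, by 0.62 ± 0.18 (SE, adjusted p = 0.0171, under 2-fold), whereas the brightest probe gave -0.18 (95% interval -0.59 to 0.24, adjusted p = 0.472), and 0.19 under the percentile of bright probes. Against p53f/f HCC, ICC gave 0.69 (adjusted p = 0.0718) at the brightest probe and -0.38 (adjusted p = 0.2) at the other. In the order of group means, ICC thus came between the HCC groups at the brightest probe and last at the other.

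**Figure D2:**
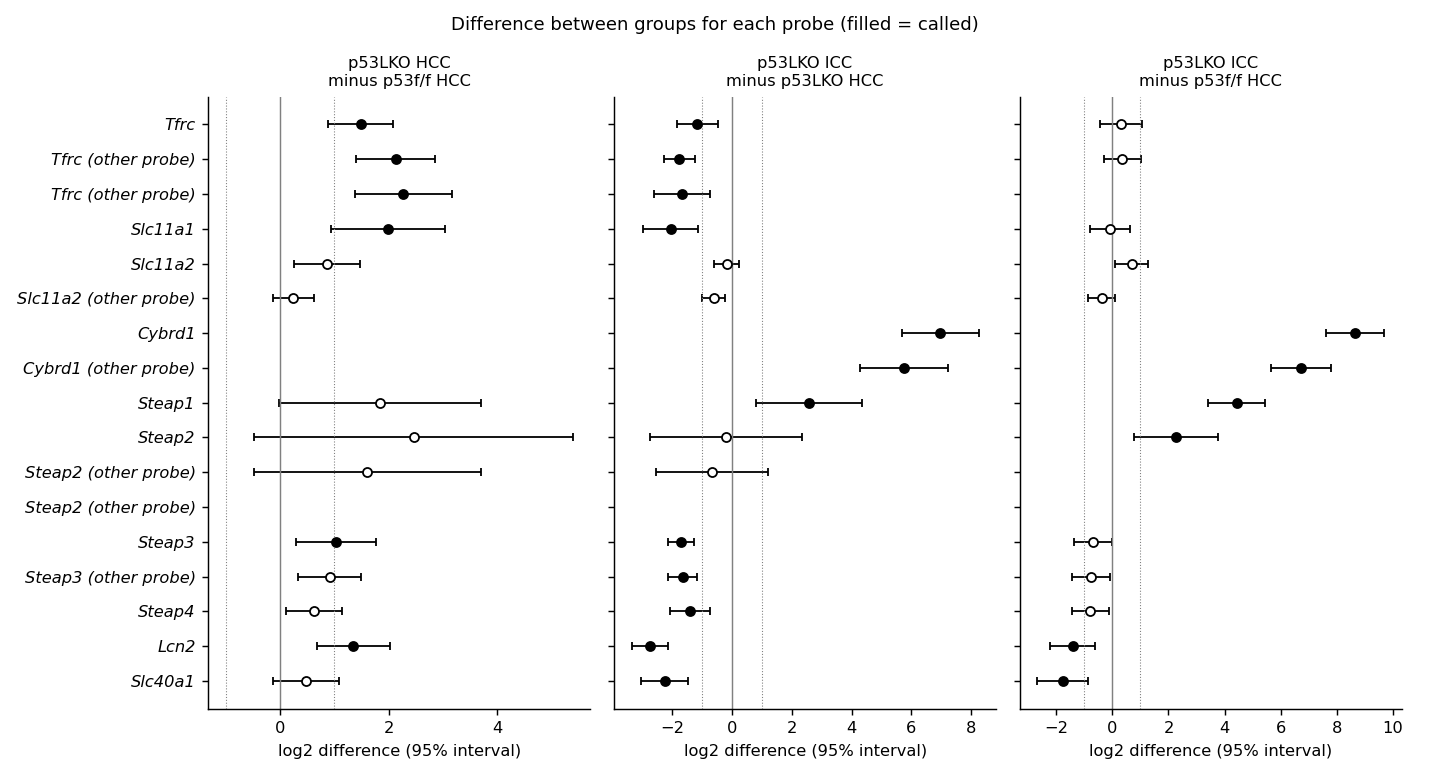
Difference between groups (log2, with its 95% interval) for each of the 17 probes in the 3 comparisons, with filled points for those called and dotted lines at a fold of 2; a row without a point was not tested in that comparison, and the first row of a gene is its brightest probe. The Tfrc probes lie right of 1 in p53LKO HCC against p53f/f HCC, and both brighter ones left of -1 in ICC against p53LKO HCC. The third Tfrc probe in ICC against p53LKO HCC and Cybrd1 against p53f/f HCC are fitted against a group with no signal above background, and Cybrd1 against p53LKO HCC with 1 of 5.

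Cybrd1, a ferrireductase of the plasma membrane, separated ICC from HCC more widely than any other member. Its level was 1.88, 1.97, 2.73, 2.01 and 4.32 in ICC. In the p53LKO HCC it was -2.60 in mouse 3731, the only HCC in which the signal was well above background, and -5.32 to -4.29 in the other 4. None of the p53f/f HCC was above background, with signals from -6.83 to -5.32.

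The difference of ICC from p53LKO HCC in Cybrd1 was 6.98 ± 0.58 (SE, adjusted p = 2.59e-05), and the probe from base 3770 gave 5.74 ± 0.67 (SE, adjusted p = 0.000151). At both probes 1 of 5 HCC and all 5 ICC were well above background, so that these values were fitted mostly against background signals, and the probes entered the test through the ICC. Against p53f/f HCC, ICC were at least 125-fold higher (adjusted p = 2.9e-06) and at least 25.5-fold higher (adjusted p = 1.26e-05) at these probes, as bounds taken from the lowest signals above background on the p53f/f arrays. The ICC of mouse 5283 was highest at both probes. Among HCC the p53LKO and p53f/f groups could not be compared at this signal.

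Steap2, a metalloreductase of the plasma membrane and of vesicles, and Steap1, a relative that lacks the oxidoreductase domain of the others, lie next to each other on chromosome 5. Both varied by large amounts among HCC. Steap1 was at -4.30, -3.04, -1.97, -4.23 and -3.18 in p53f/f HCC and at 0.96, -3.46, -0.47, -3.59 and -0.97 in p53LKO HCC. Steap2 was at -2.87, -2.38, 1.17, -3.15 and -1.72 in p53f/f HCC and at 3.73, -1.70, 1.92, -3.29 and 2.68 in p53LKO HCC. The same 3 p53LKO HCC, of mice 3976, 3731 and 3975, were high in both genes, and the same p53f/f HCC, of mouse 3716, was the highest of its group in both.

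The ICC were more even, at 0.97, 1.75, 0.10, 0.99 and 1.60 for Steap1 and at 0.56, 0.50, 0.26, 0.43 and 0.60 for Steap2. The SD of Steap2 was 0.14 in ICC, 1.74 in HCC of p53f/f mice and 3.01 in those of p53LKO mice. With this spread between tumors, p53LKO and p53f/f HCC were not called different, at 1.84 (95% interval -0.03 to 3.71, adjusted p = 0.118) for Steap1 and 2.46 (95% interval -0.48 to 5.39, adjusted p = 0.178) for Steap2. Without the p53LKO HCC of mouse 3733, Steap2 was called at 3.45 (adjusted p = 0.0485), and with spike-in scaling Steap1 was called at 2.57.

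Steap1 was higher in ICC than in p53LKO HCC by 2.59 ± 0.80 (SE, adjusted p = 0.0231), with 4 of 5 ICC above all p53LKO HCC. That call was lost with the mouse as a block (2.74, adjusted p = 0.103) and with the row as a block (2.33, adjusted p = 0.14), without the p53LKO HCC of mouse 5283 (2.10, adjusted p = 0.0501) or 3733 (2.06, adjusted p = 0.0515), and without the ICC of mouse 3733 (2.42, adjusted p = 0.0533). Against p53f/f HCC, ICC were higher in Steap1 by 4.43 ± 0.46 (SE, adjusted p = 0.000114), a fold of 21.5, and did not overlap them. Steap2 differed between ICC and p53LKO HCC by -0.20 (95% interval -2.75 to 2.35, adjusted p = 0.902), with a sign that turned under several settings. It was higher in ICC than in p53f/f HCC by 2.26 ± 0.68 (SE, adjusted p = 0.026), although the p53f/f HCC of mouse 3716 lay above all ICC. This call was lost in a model of all 15 arrays (adjusted p = 0.134), with the slide as a block (2.27, adjusted p = 0.12) and after leaving out the p53f/f HCC of mouse 3681 (1.99), mouse 3715 (2.11) or mouse 3717 tumor 1 (1.92). The other probes of Steap2 were dim, above background in 4 and 1 of the 15 tumors.

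Steap3, the endosomal ferrireductase that serves transferrin iron, was higher in p53LKO HCC than in p53f/f HCC and lower in ICC than in p53LKO HCC. Its level was 2.02, 2.56, 2.26, 0.93 and 1.13 in p53f/f HCC. It was 3.39, 2.51, 2.84, 2.39 and 2.87 in p53LKO HCC and 1.26, 0.82, 1.17, 1.15 and 1.05 in ICC. The ICC lay below every p53LKO HCC, and the p53f/f HCC reached into both, with the 2 tumors of mouse 3717 at the level of ICC.

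Against p53f/f HCC, p53LKO HCC were higher in Steap3 by 1.02 ± 0.33 (SE, adjusted p = 0.0374), a fold of 2.03 that barely passed both limits. The call was lost in 12 of 19 other settings, among them quantile normalization (0.80, adjusted p = 0.0984), the row as a block (0.92, adjusted p = 0.116) and the tumors of mouse 3717 averaged (0.83, adjusted p = 0.0859), and the other probe gave 0.91 (adjusted p = 0.0229), a fold of 1.88. It was also lost without the p53f/f HCC of mouse 3681 (1.08), mouse 3717 tumor 1 (0.81) or tumor 2 (0.86), or the p53LKO HCC of mouse 3976 (0.87), mouse 3731 (1.01) or mouse 3975 (1.00). The sign was positive in all of these. ICC were lower than p53LKO HCC by 1.71 on the log2 scale (difference -1.71 ± 0.20, SE, adjusted p = 0.000164), and the other probe gave -1.66 (adjusted p = 0.000296). ICC against p53f/f HCC gave -0.69 (95% interval -1.37 to -0.01, adjusted p = 0.105), and 0.04 with spike-in scaling.

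Steap4, a ferrireductase of inflamed and metabolic tissue, was at 1.78, 1.24, 2.10, 1.42 and 1.47 in p53f/f HCC. Its level was 2.57, 2.07, 1.62, 2.28 and 2.58 in p53LKO HCC and 1.16, -0.29, 0.98, 1.18 and 1.02 in ICC. All ICC lay below all HCC of both genotypes. The difference of ICC was -1.41 ± 0.31 (SE, adjusted p = 0.00421) from p53LKO HCC and -0.79 ± 0.30 (SE, adjusted p = 0.0619) from p53f/f HCC. The HCC of both genotypes overlapped, with a difference of 0.62 (95% interval 0.11 to 1.14, adjusted p = 0.0633), which was called with spike-in scaling at 1.35. The ICC of mouse 3733, at -0.29, stood apart from the other ICC.

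Lcn2, which binds iron-loaded siderophores and rises in the liver's acute phase, gave 3 ordered groups. It was at 6.94, 6.58, 8.30, 7.45 and 7.68 in p53f/f HCC. It was at 8.55, 8.60, 8.42, 9.0 and 9.10 in p53LKO HCC, above every p53f/f HCC. In ICC it was at 6.72, 5.11, 6.09, 6.12 and 5.82, below every p53LKO HCC, and in 4 of 5 below every p53f/f HCC.

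The difference of p53LKO HCC from p53f/f HCC in Lcn2 was 1.34 ± 0.31 (SE, adjusted p = 0.00701). That of ICC from p53LKO HCC was -2.76 ± 0.28 (SE, adjusted p = 7.47e-05), and that of ICC from p53f/f HCC was -1.42 ± 0.36 (SE, adjusted p = 0.0128). The last was no longer called with quantile normalization (-0.96), with spike-in scaling (-0.68) or with the slide as a block (-1.25, adjusted p = 0.106). Acute phase genes were measured beside it. Of 11, Saa3 was called higher in p53LKO HCC than in p53f/f HCC, at 2.50, and the median of the list was 0.14 against 0.06 over all gene symbols. In ICC against p53LKO HCC, Saa1, Saa2 and Socs3 were called higher, at 1.96, 2.15 and 1.65, and Orm1, Orm2 and Hpx lower, at -1.65, -1.42 and -1.03. Over all gene symbols, 13.2% were called higher and 15.2% lower. The median of the list was -0.38 in that comparison, against -0.17 over all gene symbols. In ICC against p53f/f HCC 4 of the 11 were called higher and 2 lower, against 10.8% and 11.9% of all gene symbols. The list median was -0.36 in this comparison, against -0.18 over all gene symbols. The higher calls in ICC against both HCC groups held under the 3 other scalings. The lower calls of Orm1, Orm2 and Hpx were lost with quantile normalization (-1.21, -0.98 and -0.65) and with the percentile of bright probes (-1.28, -1.06 and -0.66), and those of Hpx and Fgb against p53f/f HCC with quantile normalization (-0.56 and -0.37) and spike-in scaling (-0.62 and -0.51). Neutrophils also make Lcn2, and their markers, given with Slc11a1, were called higher in p53LKO HCC in 4 of 6, of which 3 kept the call under each of 2 other scalings; their part in the level of Lcn2 was not tested.

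Slc40a1, the iron exporter, was lower in ICC than in HCC. Its level was 3.15, 4.72, 4.40, 4.05 and 3.99 in p53f/f HCC and 4.72, 4.11, 4.72, 4.71 and 4.47 in p53LKO HCC. In ICC it was 2.25, 1.14, 2.42, 3.48 and 2.17. The HCC groups overlapped in part, with 3 p53f/f HCC below all p53LKO HCC and the highest values of both groups equal at 4.72, and of the ICC only that of mouse 3977 was above the lowest p53f/f HCC. The difference of ICC was -2.26 ± 0.36 (SE, adjusted p = 0.000735) from p53LKO HCC and -1.77 ± 0.41 (SE, adjusted p = 0.00797) from p53f/f HCC, and the latter was not called with the slide as a block (-1.76, adjusted p = 0.0596) or with spike-in scaling (-1.04, adjusted p = 0.0992). Between the genotypes of HCC it was 0.48 (95% interval -0.12 to 1.09, adjusted p = 0.198), and 1.21 with a call under spike-in scaling.

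**Figure D3:**
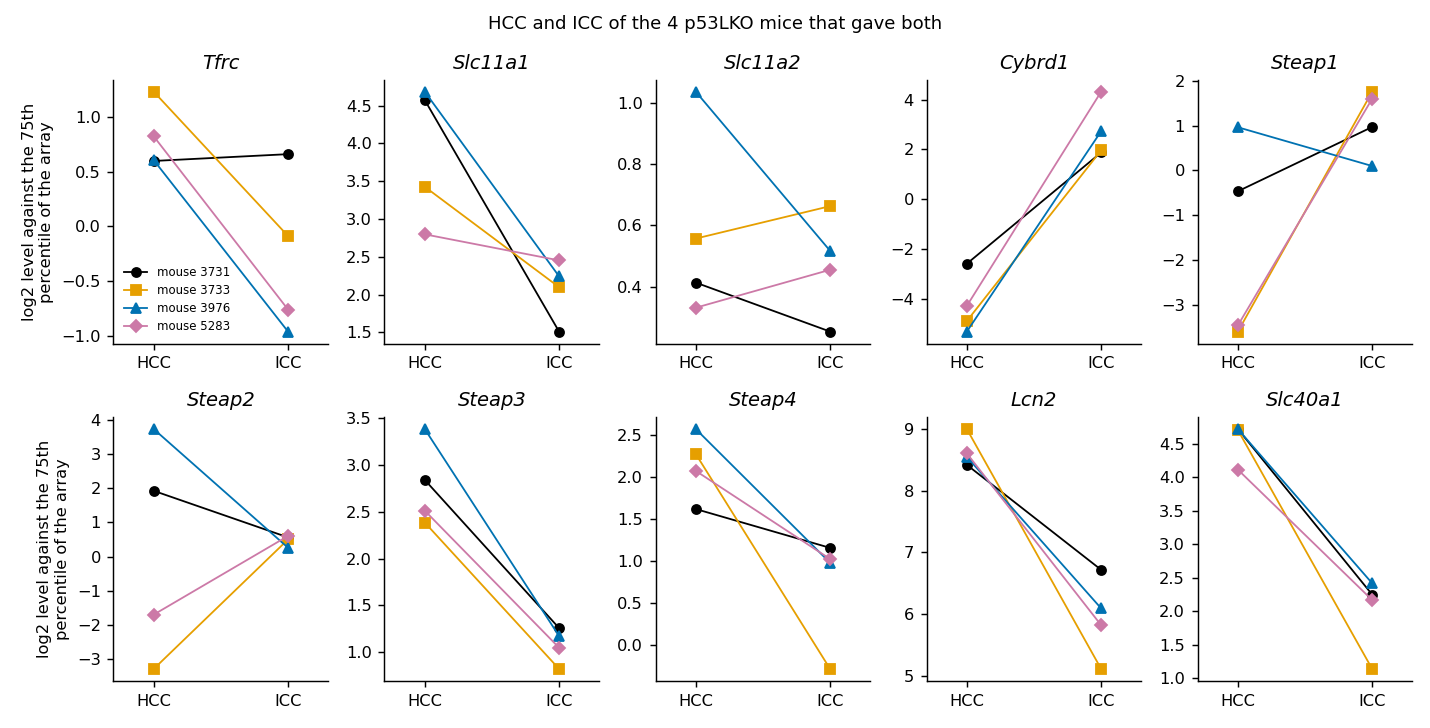
Level of each gene (log2 against the 75th percentile of the array) in the HCC and the ICC of the same mouse, for mice 3731, 3733, 3976 and 5283, with each line joining the tumors of 1 mouse and each panel on its own axis. Slc11a1, Steap3, Steap4, Lcn2 and Slc40a1 lie lower in the ICC of all 4 mice and Cybrd1 higher in all 4, whereas Slc11a2 and Steap2 go up in 2 mice and down in 2.

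In the 4 mice with both kinds of tumor, genotype, treatment and animal were the same for the HCC and the ICC. Slc40a1 was lower in the ICC of every pair (log2 differences -3.57 to -1.95), Lcn2 changed by -3.88 to -1.70, Steap3 by -2.22 to -1.47, Steap4 by -2.56 to -0.46 and Slc11a1 by -3.06 to -0.35. Cybrd1 was higher in the ICC of all 4 mice, by 4.47 in mouse 3731, while the HCC signal of the other 3 mice was not above background. Tfrc was lower in 3 mice, at -1.58 to -1.32, and equal within 0.06 in mouse 3731, all at the brightest probe. At the probe from base 1228 Tfrc was lower in the ICC of all 4 mice, and its level in mouse 3731 was 0.39 in the HCC and -1.05 in the ICC. Steap1 was higher in 3 mice, by 1.43 to 5.35, and lower in mouse 3976, at -0.86. In mouse 5283, where it was higher, the HCC signal of Steap1 was not well above background. Steap2 changed from -3.47 in mouse 3976 to 3.79 in mouse 3733, as its HCC levels did, since the ICC levels were alike.

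The mean level of the biliary markers separated ICC from HCC, while those of the hepatocyte and stellate markers overlapped. Of 6 hepatocyte markers, Alb, Ttr, Apoa1 and Hnf4a were called lower in ICC than in p53LKO HCC, with a median difference of the list of -1.82 against -0.17 over all gene symbols. Cps1 gave -1.66 (adjusted p = 0.0854), and Cyp2e1 went the other way, at 1.94 (adjusted p = 0.101), and at 1.67 (adjusted p = 0.361) against p53f/f HCC. All 6 were above background in all 15 tumors, and their mean level was 6.37 to 7.66 in p53f/f HCC, 6.28 to 6.89 in p53LKO HCC and 3.40 to 6.32 in ICC. Of 6 biliary markers, Krt7, Krt19, Epcam and Spp1 were called higher in ICC. Sox9 and Cftr were not called against p53LKO HCC, at 0.30 (adjusted p = 0.421) and 0.67 (adjusted p = 0.2). Krt19 and Spp1 were above background in all 10 tumors, at 4.67 and 4.73, whereas Epcam was so in none of the HCC and at least 78.2-fold higher in ICC, and Krt7 was so in 1 of 5 HCC. The mean level of the 6 was 1.65 to 2.16 in ICC, against -2.65 to -0.74 in p53LKO HCC and -2.33 to 0.74 in p53f/f HCC. The labels HCC and ICC thus went with the mean level of the biliary list and with the 4 hepatocyte markers called. RNA of all 6 hepatocyte markers was measured in every ICC, and whether it came from hepatocytes or from tumor cells was not tested. Of 6 stellate and fibroblast markers, Col1a1, Col1a2 and Pdgfrb were called higher in ICC than in p53LKO HCC, by 1.25 to 2.75, whereas Lrat gave -1.22 (adjusted p = 0.114) and Des -0.39 (adjusted p = 0.458), and the median of the list was 1.24. The part of these cell types in the fall of Steap3, Steap4, Lcn2 and Slc40a1 or in the rise of Cybrd1 and Steap1 in ICC was not tested.

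**Figure D4:**
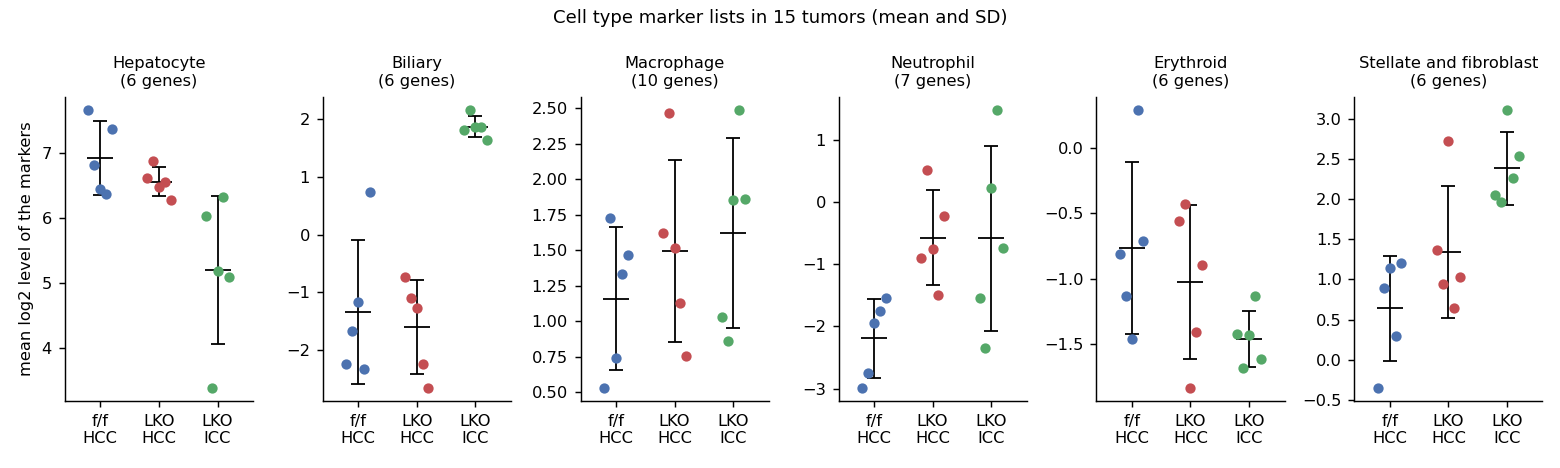
Mean log2 level of 6 lists of cell type markers in each of 15 tumors, with group mean and SD as bars, for p53f/f HCC in blue, p53LKO HCC in red and p53LKO ICC in green. The biliary list lies at 1.65 or above in all ICC and at 0.74 or below in all HCC, and the neutrophil list at -1.55 or below in all p53f/f HCC and at -1.49 or above in all p53LKO HCC.

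Other genes of iron handling were taken from lists written for this work with earlier results known. Of 20 further genes of uptake and intracellular transport, 18 were tested. In p53LKO HCC against p53f/f HCC, 3 were called lower and no other was called, the zinc and iron transporter Slc39a8 at -1.14, the ferritin receptor Scara5 at -2.28 and the endocytic receptor Cubn at -1.06, and the median was 0.02 against 0.06 over all gene symbols. These 3 calls were lost with spike-in scaling (-0.42, -1.55 and -0.34), and those of Scara5 and Cubn were also lost with quantile normalization (-1.83 and -0.40). Tfr2, the transferrin receptor of hepatocytes, was higher by 1.00 ± 0.23 (SE, adjusted p = 0.00699) and missed the fold limit. In ICC against p53LKO HCC, Tfr2 was called lower at -2.12 (adjusted p = 0.000207), transferrin (Trf) at -1.17 and the ferritin receptor Timd2 at -2.32, while Scara5 and Cubn were called higher, at 1.90 and 2.53; the call of Trf was lost with quantile normalization (-0.87) and the percentile of bright probes (-0.80). Against p53f/f HCC, Cubn was called higher in ICC at 1.47, and Tfr2, Trf, Slc39a8, the heme and folate transporter Slc46a1 and Timd2 lower, at -1.12, -1.59, -1.59, -1.19 and -2.41. Of these lower calls that of Timd2 alone held with spike-in scaling (-1.67, with -0.38, -0.86, -0.85 and -0.46 for the other 4), and those of Tfr2 and Trf were also lost with quantile normalization (-0.84 and -0.69). The genes of this and the other lists that were called kept their sign under quantile normalization, the percentile of bright probes and spike-in scaling, although calls were lost, the most with spike-in scaling against p53f/f HCC, where 9 of 13 stayed called in p53LKO HCC and 26 of 38 in ICC.

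Of the hepcidin and export genes, Hamp2, the second hepcidin gene of mice, was called higher in p53LKO HCC than in p53f/f HCC, at 3.03 ± 0.85 (SE, adjusted p = 0.0197), whereas Hamp gave -1.02 ± 0.69 (SE, adjusted p = 0.273). In ICC, Hamp was called higher, by 3.12 ± 0.76 (SE, adjusted p = 0.00755) than p53LKO HCC and by 2.10 ± 0.63 (SE, adjusted p = 0.0253) than p53f/f HCC. Slc40a1 was low in the same tumors, but its level is that of mRNA and not of protein, and a link with Hamp was not tested. Hamp and Hamp2 are close copies, and whether their probes tell them apart was not tested. The ferroxidase Cp was called lower in ICC than in p53f/f HCC, at -1.03, and under none of the 3 other scalings. Of the 6 genes of the iron regulatory proteins and ferritin, Aco1, Ireb2, Fbxl5, Fth1, Ftl1 and Ncoa4, 0 were called by limma in any of the 3 comparisons, with 2, 4 and 5 at an unadjusted p under 0.05. Of these, ferritin heavy chain Fth1 gave -0.82 ± 0.15 (SE, adjusted p = 0.00163) in ICC against p53LKO HCC and Ireb2, which encodes an iron regulatory protein, -0.72 ± 0.25 (SE, adjusted p = 0.0454) in p53LKO HCC against p53f/f HCC, both under 2-fold. In ICC against p53f/f HCC, Ireb2 was above background in 0 of 5 ICC and so at least 1.58-fold lower (adjusted p = 0.00315). The ferritin light chain Ftl1 gave -0.68 (adjusted p = 0.00607) and Fbxl5, which marks iron regulatory proteins for breakdown, 0.88 (adjusted p = 0.00929), both under 2-fold.

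For the 8 members above background in all 15 tumors, the gene symbols with the most similar levels were sought among 11615 symbols. These are correlations over 15 arrays that fall into 3 groups, given as a description, each followed by the correlation of deviations from the group means. Steap3 was most like Nudt1 (r = 0.958, deviations 0.863), which clears oxidised nucleotides, and Umps (r = 0.952, deviations 0.864) of pyrimidine synthesis. Slc40a1 was most like Ephx1, Gsta3 and Gsta2, detoxifying enzymes of the liver (each r = 0.95, deviations 0.778 to 0.82). Steap4 was most like Lrg1, an acute phase glycoprotein (r = 0.932, deviations 0.79), and Lcn2 most like Spsb4 (r = 0.951, deviations 0.707), which was also among the 3 genes most like Steap4. Steap2 was most like Mgst2, a microsomal glutathione transferase (r = 0.911, deviations 0.89). Slc11a1 was most like Ergic1 (r = 0.911, deviations 0.731), Slc11a2 like the mitochondrial fission factor Mff (r = 0.918, deviations 0.82), and Tfrc like 1700030K09Rik (r = 0.899, deviations 0.713).

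**Figure D5:**
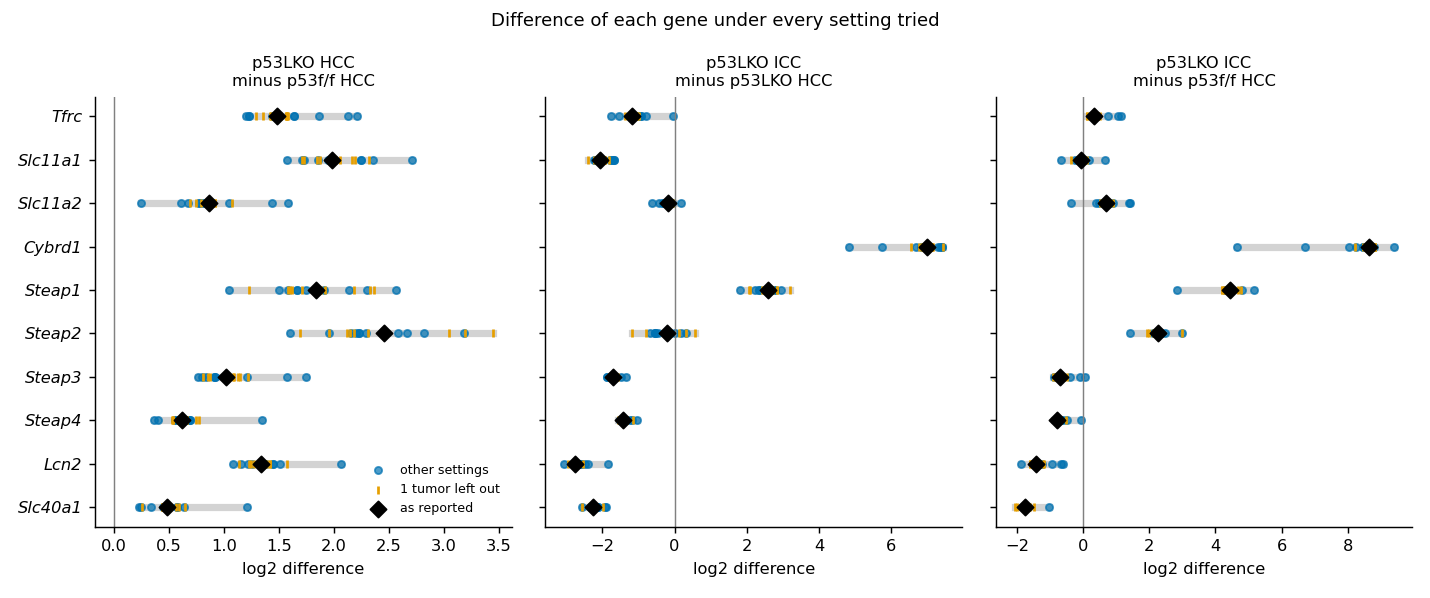
Log2 difference of each gene in the 3 comparisons as reported (black diamonds), with 1 tumor left out (orange ticks) and under the other settings (blue points), where the grey bar spans them. In p53LKO HCC against p53f/f HCC all values of the 9 genes are above 0, from 1.20 to 2.21 for Tfrc under the other settings, while Steap2 and Slc11a2 cross 0 in ICC against p53LKO HCC and Slc11a1, Slc11a2 and Steap3 in ICC against p53f/f HCC.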

How the data were processed

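RNA of 15 tumors was measured on 1-colour Agilent arrays, and the labels gave the group and mouse of each. The authors extracted the images with Feature Extraction 10.7.3.1 and deposited the scanner output, in which each spot has an intensity that the software had background-subtracted, its processed signal. A second deposited table, with log2 values of the authors, held values that matched rebuilt values (correlation at least 0.9999 for HCC) and were used as an alternative. Spots flagged as outliers, 127 to 224 per array, were left out.

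Spots of 1 probe were averaged as log2 signal, and the 75th percentile of each array was subtracted. Probes that 3 or more arrays of 1 of the 2 groups compared measured well above background were tested with limma 3.58.1 in R 4.3.3 on the 10 arrays of each comparison, with Benjamini-Hochberg adjustment over all probes tested (36082, 32669 and 35698). The fit was tested on simulated data. Figures were drawn with matplotlib 3.10.9. Promoters were those of RefSeq.

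The 10 genes, the other lists and the alternatives were chosen with earlier results of these data known. All 10 genes are named with every probe, and of the other lists the genes called in at least 1 comparison. Members just short of a limit, markers and the genes most alike are given as descriptions. The animal pairs the HCC and ICC of 4 mice, and deviations from group means correlated at -0.179 to 0.126 within a mouse and at -0.238 to 0.282 between mice over 18954 probes. The alternatives were other background corrections, scalings, filters and tests, slide, row or mouse as a block, single slides and rows, another probe, and each tumor left out.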

Additional observations from a re-analysis of the deposited data

Results flagged for a closer look

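Among the 5 ICC of p53LKO mice, the Steap4 level of the tumor of mouse 3733 was -0.288, whereas the other 4 lay between 0.978 and 1.181. The gap to the nearest of them was 0.861 of the whole range of the group, above the 95% limit of Dixon's test for 5 samples. It was the only flag in 30 groups of 5 tumors, and chance flags about 1 in 20 groups, or 1.5 of 30. The Slc40a1 and Lcn2 levels of the same tumor, 1.14 and 5.11, were also the lowest of the ICC, and its Steap3 level of 0.82 was too. The mean level of the 6 hepatocyte markers was 3.40 in this tumor and 5.09 to 6.32 in the other ICC, and its part in the Steap4 level was not tested. Without this tumor the Steap4 difference between ICC and HCC of p53LKO mice was -1.14 (limma, adjusted p = 0.00389).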

How the results depend on the processing

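The 4 genes called in p53LKO HCC against p53f/f HCC became 8 with scaling to spike-in probes, 2 with the Mann-Whitney test (Tfrc and Lcn2) and 0 on slide 1 or slide 2 alone, and leaving out 1 tumor gave 3 to 5. The 8 called in ICC against p53LKO HCC became 1 on slide 1 alone and 6 with the mouse as a replicate block (7 to 8 with 1 tumor left out), and the block changed no other call of this comparison than those of Tfrc and Steap1. The 5 called in ICC against p53f/f HCC became 3 among probes well above background on every array, 2 with the slide as a block, 1 on either slide alone and 2 with the Mann-Whitney test, and 4 to 5 with 1 tumor left out. The signs of differences that were not called turned in these cases. Slc11a2 in ICC against p53LKO HCC was 0.19 and Steap2 0.169 with the percentile of bright probes, and Steap2 was also 0.01 on slide 2 alone and 0.314 with the mouse as a replicate block, and with 1 tumor left out ran from -1.187 to 0.567, above 0 for the p53LKO HCC of mouse 3976 (0.567), mouse 3731 (0.116) or mouse 3975 (0.305). Slc11a1 in ICC against p53f/f HCC was 0.012 with the percentile of bright probes, 0.658 with spike-in scaling, 0.175 on slide 2 alone, and with 1 tumor left out ran from -0.356 to 0.13, above 0 for the p53f/f HCC of mouse 3716 (0.13) and the ICC of mouse 3731 (0.061), Steap3 was 0.044 with spike-in scaling, and Slc11a2 was -0.375 at its other probe. The cause was not tested, apart from the fewer arrays of a single slide. In all, 227 of 260, 250 of 278 and 226 of 257 values of the members kept sign and call in the 3 comparisons. Over all probes, the 7088, 8615 and 6937 calls became 2892, 5614 and 3750 with normexp, 1850, 4333 and 3754 with probes above background on every array, 11868, 14764 and 12146 without a limit on the fold, 3511, 1178 and 284 on slide 1, 508 and 264 on slide 2 for both comparisons with p53f/f HCC, 11886 with spike-in scaling in p53LKO HCC against p53f/f HCC, and 19132 without a filter and 3701 with the slide as a block in ICC against p53f/f HCC. Precision is limited by 5 tumors a group and by signal over background, most for Cybrd1 in HCC and the dim probes of Steap2 and Tfrc.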
